A study of Mus musculus with 18 samples.

Results

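The genes described here are 34 imprinted genes of the mouse outside the Dlk1 locus, taken as a named list: H19, Igf2, Igf2r, Airn, Kcnq1ot1, Kcnq1, Cdkn1c, Phlda2, Slc22a18, Peg3, Usp29, Zim1, Peg10, Sgce, Mest, Snrpn, Ndn, Magel2, Mkrn3, Peg12, Ube3a, Grb10, Plagl1, Nnat, Gnas, Nespas, Impact, Slc38a4, Trappc9, Inpp5f, Ascl2, Zdbf2, Mcts2 and H13. They stand among 21895 genes placed on the mm10 genome. A gene's locus was its RefSeq body with 5 kb added on each side, and the 34 loci merged into 26 separate stretches because some imprinted genes overlap or lie side by side. Nespas was found in the RefSeq table under its other symbol, Gnasas1.

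Chromatin immunoprecipitation for H3K27ac and for H3K4me3 had been sequenced from mouse embryonic stem cells of the C57BL/6 strain, with 2 libraries for each mark and genotype. The knockout lines were Mettl3_KO1 and Mettl3_KO2, called KO1 and KO2 below, and the cells they were set against were Mettl3_Control, called Control. All 3 genotypes had been grown in serum medium with LIF and a pair of kinase inhibitors, CHIR99021 at 3 μM against GSK3 and PD0325901 at 1 μM against MEK. The labels give neither the part of Mettl3 that is missing nor whether each knockout line is a single clone, nor whether the libraries of a genotype were prepared from independent cultures. The p-values below therefore rest on library-to-library spread that could be purely technical. Both knockout lines are set against the same Control libraries, so their differences from Control are not independent.

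METTL3 places N6-methyladenosine on RNA as the active part of a larger enzyme complex. Imprinted genes are expressed mainly or only from the maternal or the paternal chromosome, and most of them lie in clusters ruled by a control region that carries DNA methylation on a single parental chromosome. H3K4me3 marks active and poised starts and the unmethylated copy of a control region, while H3K27ac marks active starts and enhancers. The protein ZFP57 binds the letters TGCCGC when they are methylated and with TRIM28 keeps the methylated copy methylated in embryonic stem cells. In an inbred strain the parental copies have the same sequence, so each peak stands for both copies together, and a gain on a silent copy cannot be told apart from a gain on an active copy.

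The starts of 5 genes at which the marks differed are shown first, each as 250 bases before and 50 bases after a RefSeq start in GRCm38.p6, the same assembly as mm10, written along the gene. Capitals mark TGCCGC, or GCGGCA where the motif lies on the other strand, and a sequence without capitals holds neither.
Zdbf2 (chr1:63200108-63200407, plus strand): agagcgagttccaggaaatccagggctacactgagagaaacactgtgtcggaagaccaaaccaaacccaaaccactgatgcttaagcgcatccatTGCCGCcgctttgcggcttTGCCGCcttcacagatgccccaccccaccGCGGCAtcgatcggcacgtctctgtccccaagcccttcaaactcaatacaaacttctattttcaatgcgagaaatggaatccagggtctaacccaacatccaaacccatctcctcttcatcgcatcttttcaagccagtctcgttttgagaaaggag
Mest (chr6:30737800-30738099, plus strand): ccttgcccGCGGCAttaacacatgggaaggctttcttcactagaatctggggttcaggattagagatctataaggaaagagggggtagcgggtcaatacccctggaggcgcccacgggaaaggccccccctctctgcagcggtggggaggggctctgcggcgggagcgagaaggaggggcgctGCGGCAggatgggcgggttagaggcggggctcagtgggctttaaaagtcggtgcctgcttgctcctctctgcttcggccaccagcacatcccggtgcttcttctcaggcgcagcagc
Grb10 (chr11:12037371-12037670, minus strand): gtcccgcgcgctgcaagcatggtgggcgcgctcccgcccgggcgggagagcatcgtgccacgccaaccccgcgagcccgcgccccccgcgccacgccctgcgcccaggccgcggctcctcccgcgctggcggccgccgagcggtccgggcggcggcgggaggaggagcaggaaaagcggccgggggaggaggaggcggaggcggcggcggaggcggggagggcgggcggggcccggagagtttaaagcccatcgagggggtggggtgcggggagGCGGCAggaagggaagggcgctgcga
Slc38a4 (chr15:97055907-97056206, minus strand): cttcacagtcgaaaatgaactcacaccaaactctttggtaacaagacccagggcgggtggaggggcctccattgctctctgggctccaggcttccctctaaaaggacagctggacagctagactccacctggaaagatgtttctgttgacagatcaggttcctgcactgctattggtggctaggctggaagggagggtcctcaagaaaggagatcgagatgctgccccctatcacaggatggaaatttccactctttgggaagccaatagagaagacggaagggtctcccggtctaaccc
Kcnq1ot1 (chr7:143296498-143296797, minus strand): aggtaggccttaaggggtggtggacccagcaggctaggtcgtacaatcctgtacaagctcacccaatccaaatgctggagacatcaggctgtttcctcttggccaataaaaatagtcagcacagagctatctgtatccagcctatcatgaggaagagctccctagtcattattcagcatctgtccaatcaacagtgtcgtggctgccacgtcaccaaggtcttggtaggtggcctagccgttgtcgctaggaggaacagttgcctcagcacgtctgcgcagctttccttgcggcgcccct

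The Zdbf2 start holds 3 copies of the motif, the Mest start 2 and the Grb10 start 1, and none was found in the windows at the Slc38a4 and Kcnq1ot1 starts. Over all imprinted genes with a promoter sequence, 9 of 26 genes (34.6%) held TGCCGC on either strand in at least 1 window, against 13.1% of 26994 genes in the RefSeq table. The imprinted genes have more windows per gene, and counted by window 10 of their 40 windows held it, against 11.6% of all 32817 windows. The others of the 9 were Plagl1, Mcts2, Nnat, Zim1, Snrpn and Igf2 with 1 copy in a window. H19, Kcnq1, Cdkn1c, Peg10, Sgce, Impact, Trappc9 and Nespas have no promoter sequence here.

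The unit of comparison was the number of bases of a locus that lay under the authors' peaks in a library, called covered length. The H3K27ac lists held 40210 and 39048 peaks in KO1, 65398 and 61383 in KO2 and 29973 and 32957 in Control, and the H3K4me3 lists 69995 and 69320 in KO1, 72303 and 66483 in KO2 and 83644 and 81608 in Control. Read numbers per library are not in these lists, so the depth behind a peak is unknown. All 8 embryonic stem cell markers (Pou5f1, Nanog, Sox2, Esrrb, Klf4, Tdgf1, Dppa4 and Tfcp2l1) carried H3K27ac peaks, with a summed covered length of 57.4 to 62.9 kb in KO1, 115 kb in both KO2 libraries and 62.0 to 62.6 kb in Control. Of 8 fibroblast markers, 7 had no H3K27ac peak in any library and the list summed to at most 0.642 kb in any library. Of 8 trophoblast markers, 5 had none, with sums of 2.29 to 2.64 kb in KO1, 6.12 to 6.53 kb in KO2 and 1.24 to 2.06 kb in Control. At Mettl3 itself, covered H3K4me3 was 1516 and 1659 bp in KO1, 1919 and 1764 bp in KO2 and 2615 and 2886 bp in Control, a log2 difference of -0.64 (SE 0.12, limma adjusted p = 0.0085) for KO1 and -0.47 (SE 0.12, limma adjusted p = 0.016) for KO2, which says nothing of whether the gene product was lost.

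H3K27ac was present over 26 of the 34 loci. No library had an H3K27ac peak over H19, Igf2, Cdkn1c, Phlda2, Slc22a18, Zim1, Ndn or Ascl2, and 18 genes had a peak in all 6 libraries. The test took 19 of the 34 genes, those with a mean of at least 500 bp over the 6 libraries. KO2 had more H3K27ac over nearly all of these: 18 of 19, in 14 of 15 stretches, were called higher than Control at an adjusted p under 0.05, none was called lower, and Impact was not called. That share has to be read against the genome, where 90.0% of 9124 tested genes were called higher and 0.274% lower in KO2. The median log2 difference was 1.096 for the 19 imprinted genes and 0.98 for all tested genes, so the count of imprinted genes called does not set them apart, and more cells with a mark cannot be told apart from more of it per cell. When the 6 libraries were brought to the same distribution by quantile normalization, which moved the median of all tested genes to -0.08, 16.5% of all tested genes were called higher and 18.6% lower in KO2. On that relative scale 6 imprinted genes were called higher (Slc38a4, Grb10, Peg12, Kcnq1, Gnas and Nespas) and 2 lower (Ube3a and Impact). The larger peak lists of KO2 move with this result. With equal numbers of peaks from each library 15 of the 19 were called higher in KO2, beside 71.7% of 8202 tested genes. The KO2 libraries count in the 500 bp mean, so a gene can enter the test through its KO2 values, as Peg12 did. With no filter on low coverage, 21 of 26 imprinted genes were called higher in KO2 than in Control, beside 10988 of 13809 genes.

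KO1 differed less from Control in H3K27ac. Of the 19 imprinted genes, 3 were called higher (Snrpn, Peg12 and Slc38a4) and none lower, beside 13.2% of all tested genes called higher and 0.614% lower. The median log2 difference was 0.21 for the imprinted genes and 0.22 for all tested genes. After quantile normalization, with 4.49% of all tested genes higher and 2.09% lower, no imprinted gene was called higher in KO1 and 2 were called lower, Zdbf2 (-0.40, limma adjusted p = 0.033) and Mcts2 (-0.71, limma adjusted p = 0.034). Between the lines, KO2 was called higher than KO1 at 18 of 19 imprinted genes and lower at none, beside 78.4% and 0.34% of all tested genes, with Impact again not called. After quantile normalization 11.0% of all tested genes were higher and 10.6% lower in KO2 than in KO1, and the imprinted genes called were Slc38a4, Zdbf2, Mest and Kcnq1ot1 higher and Impact lower.

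**Figure D1:**
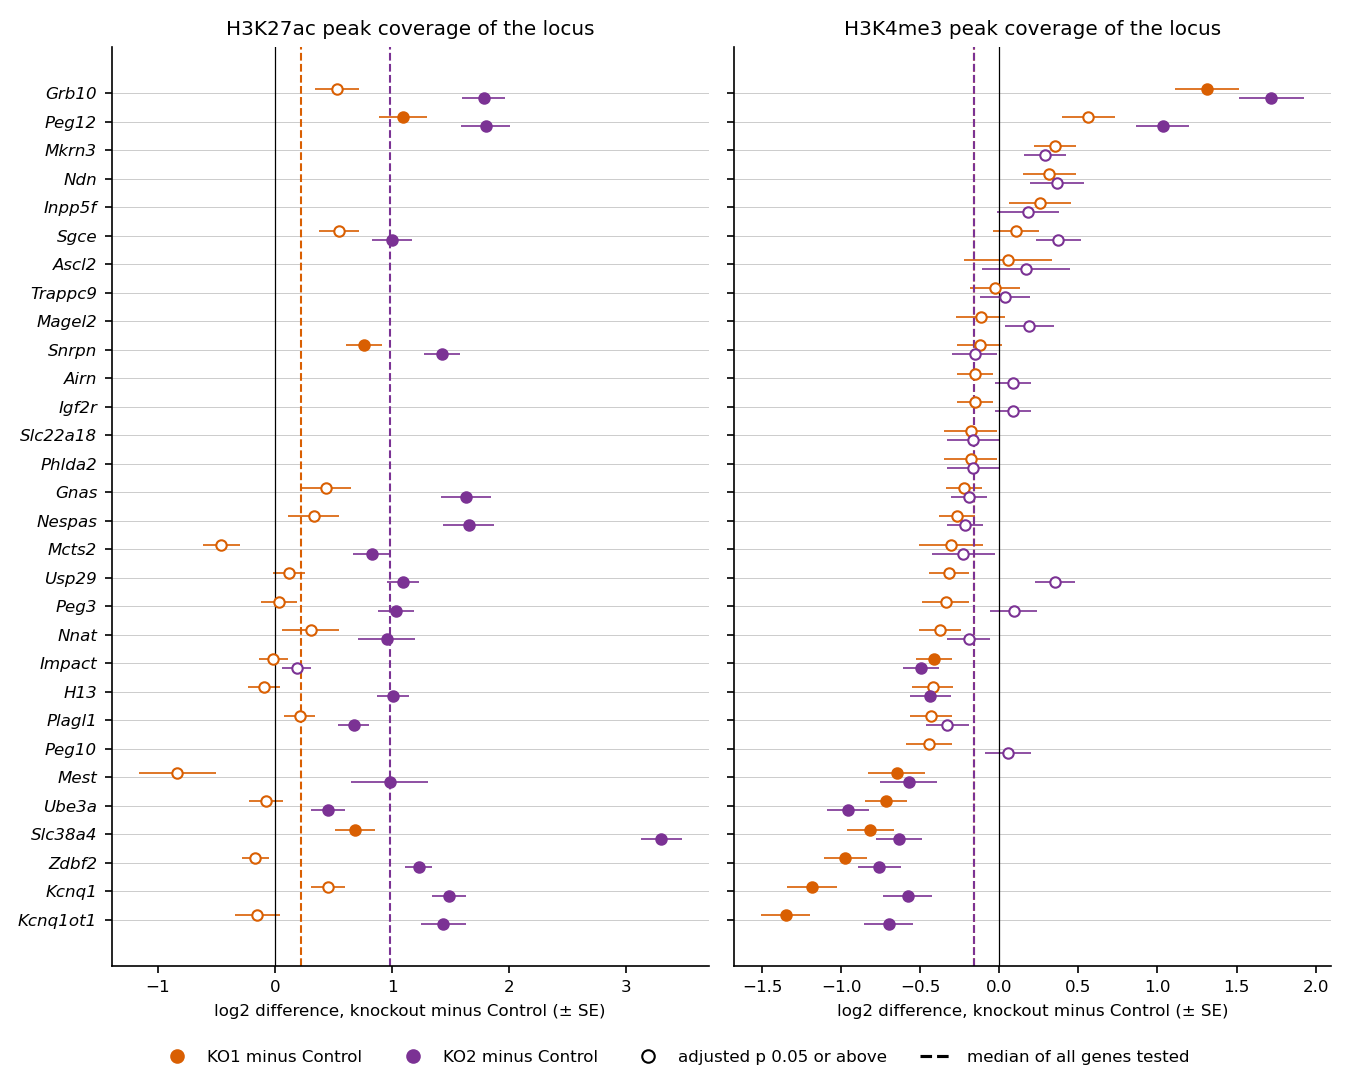
Log2 difference in covered length (± SE) for each imprinted gene that entered a test, KO1 and KO2 each minus Control, for H3K27ac on the left and H3K4me3 on the right (filled points have an adjusted p under 0.05, dashed lines are medians of all tested genes, which lie on top of each other for H3K4me3). Slc38a4 stands at 3.30 for H3K27ac in KO2, and Kcnq1ot1 and Grb10 lie at the ends of the H3K4me3 panel.

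Among the 19 tested genes the largest H3K27ac difference was at Slc38a4, which codes for a sodium-coupled amino acid transporter and is expressed from the paternal copy. Covered H3K27ac was 949 and 1146 bp in KO1, 9142 and 8864 bp in KO2 and 339 and 607 bp in Control. Both KO2 libraries lay far above all others, and the KO1 libraries lay just above the Control libraries. The KO2 difference was 3.30 (SE 0.17, limma adjusted p = 7.5e-06), a 9.86-fold change on the log2(bp + 500) scale, and it kept its call after quantile normalization at 2.23 (limma adjusted p = 7.7e-05). The KO1 difference of 0.68 (SE 0.17, limma adjusted p = 0.035) was lost when any library other than Control replicate 2 was left out, with a limma adjusted p between 0.101 and 0.135. The mark in KO2 sat over the body near the start: from 0 to 5 kb downstream of it, peaks covered 3.78% in KO1, 62.6% in KO2 and 1.57% in Control, and from 5 to 10 kb they covered 6.8% in KO1, 50.2% in KO2 and 0% in Control. The start of Gm32840, a RefSeq gene of unknown role, also lies in this locus.

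The Kcnq1 and Gnas clusters each had more H3K27ac in KO2, in part around the start of Kcnq1ot1 and in part around the most upstream start of Gnas. At Kcnq1ot1, the paternal RNA that silences its neighbours on the same chromosome, covered H3K27ac was 705 and 971 bp in KO1, 3899 and 3156 bp in KO2 and 1181 and 803 bp in Control, and only the KO2 libraries stood apart. The KO2 minus Control difference was 1.44 (SE 0.19, limma adjusted p = 0.0002), and 1.59 (SE 0.19, limma adjusted p = 0.00028) against KO1. Within 2 kb of the start, peaks covered 67.4% ± 0.212 of the bases in KO2, beside 21.0% ± 4.70 in KO1 and 24.8% ± 6.68 in Control (SD, n = 2). Kcnq1, the potassium channel gene that contains Kcnq1ot1 and so shares its peaks, differed by 1.49 (SE 0.14, limma adjusted p = 4.6e-05) in KO2. Its covered H3K27ac was 3582 and 3626 bp in KO1, 8047 and 7753 bp in KO2 and 2899 and 2146 bp in Control. Much of the KO2 gain thus lay outside the Kcnq1ot1 locus. After quantile normalization the KO2 difference from Control was called at Kcnq1 (0.42, limma adjusted p = 0.04) but not at Kcnq1ot1 (0.38, limma adjusted p = 0.158).

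At Nespas, the antisense transcript of the Gnas cluster, covered H3K27ac was 2041 and 1063 bp in KO1, 4658 and 4305 bp in KO2 and 1128 and 1038 bp in Control, and the locus of Gnas, which codes for the stimulatory G protein alpha subunit, holds most of the same peaks. The KO2 difference was 1.65 (SE 0.22, limma adjusted p = 0.00019) for Nespas and 1.63 (SE 0.21, limma adjusted p = 0.00018) for Gnas. Strong peaks centred 10499 and 11612 bp downstream of the most upstream Gnas start were present in all 6 libraries. What KO2 added included weaker peaks around that upstream start, where 27.8% ± 5.85 of the bases within 2 kb were covered in KO2, beside 2.22% ± 3.15 in KO1 and 0% in both Control libraries (SD, n = 2).

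Grb10 and Peg12 were the other genes higher on both scales in KO2. Peg12 reached the 500 bp minimum for the test only with its KO2 libraries counted. Grb10 codes for an adapter that restrains insulin and growth factor signalling, and its covered H3K27ac was 1346 and 2013 bp in KO1, 5024 and 4262 bp in KO2 and 887 and 1101 bp in Control. The difference was 1.78 (SE 0.18, limma adjusted p = 6.3e-05) in KO2 and 0.53 (SE 0.18, limma adjusted p = 0.093) in KO1. None of it lay within 2 kb of either Grb10 start in any library. A block 87.6 to 89.2 kb downstream of the upstream start was shared by all 6 libraries, and the KO2 libraries also had peaks from 94.1 to 96.4 kb and from 70.7 to 71.7 kb, where the Control libraries had only 220 bp in a single library. Peg12, a FRAT family gene of the Prader-Willi region, had 632 and 841 bp in KO1, 1507 and 1511 bp in KO2 and 0 and 166 bp in Control, with KO2 highest, KO1 between and Control lowest, without overlap, although KO2 did not stay above KO1 after quantile normalization (-0.07). Its difference was 1.80 (SE 0.21, limma adjusted p = 9.9e-05) in KO2 and 1.09 (SE 0.21, limma adjusted p = 0.015) in KO1, where leaving out any single KO1 or KO2 library brought the limma adjusted p to between 0.062 and 0.068. Snrpn, the splicing factor gene of that region, had 3102 and 2632 bp in KO1, 5340 and 4365 bp in KO2 and 1608 and 1370 bp in Control, a difference of 1.43 (SE 0.15, limma adjusted p = 7.2e-05) in KO2 and 0.76 (SE 0.15, limma adjusted p = 0.018) in KO1. The Snrpn call in KO1 was lost without any library other than Control replicate 1, at a limma adjusted p of 0.054 to 0.103.

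Mest, a paternally expressed hydrolase-family gene, differed between the lines. Covered H3K27ac was 580 and 0 bp in KO1, 2108 and 2060 bp in KO2 and 631 and 1017 bp in Control, so that 1 KO1 library had no peak and both KO2 libraries lay above the rest. KO2 exceeded KO1 by 1.81 (SE 0.33, limma adjusted p = 0.0016), a call that held under all 18 alternatives tried. The differences from Control were -0.83 (SE 0.33, limma adjusted p = 0.13) for KO1 and 0.98 (SE 0.33, limma adjusted p = 0.02) for KO2, and the KO2 call was lost without Control replicate 1 (limma adjusted p = 0.099) or without KO2 replicate 1 or 2 (0.097 and 0.091).

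Zdbf2, a paternally expressed zinc finger gene that acts in the hypothalamus of mice to promote growth, showed the same order, with 5819 and 4834 bp in KO1, 15314 and 14307 bp in KO2 and 6093 and 5965 bp in Control. KO2 stood 1.23 above Control and 1.40 (SE 0.12, limma adjusted p = 9.4e-05) above KO1, beside medians of 0.98 and 0.747 for all tested genes. After quantile normalization the difference from Control was not called (0.10, limma adjusted p = 0.434), and that from KO1 was (0.50, limma adjusted p = 0.0062). At the upstream Zdbf2 start, whose sequence holds 3 motifs, peaks covered 77.2% ± 3.39 of the 4 kb window in KO2, beside 35.8% ± 8.77 in KO1 and 34.7% ± 6.14 in Control (SD, n = 2).

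Impact, on chromosome 18, codes for a regulator of the GCN2 stress kinase and was the exception. Covered H3K27ac was 3428 and 3327 bp in KO1, 4244 and 3671 bp in KO2 and 3387 and 3437 bp in Control, a KO2 minus Control difference of 0.18 (SE 0.13, limma adjusted p = 0.184) that was not called. Beside the median of 0.98 for all tested genes this is low, and after quantile normalization the difference was called at -0.88 (limma adjusted p = 0.00098). Ube3a, the ubiquitin ligase gene that is imprinted in neurons, had 1638 and 1485 bp in KO1, 2313 and 2616 bp in KO2 and 1576 and 1766 bp in Control and a KO2 difference of 0.45 (SE 0.14, limma adjusted p = 0.017), which turned to -0.59 after quantile normalization (limma adjusted p = 0.014). The Ube3a call for KO2 was lost without Control replicate 1 (limma adjusted p = 0.071) and without KO2 replicate 2 (0.099). It was also lost with chromosome medians centred (0.26, limma adjusted p = 0.13) and with peaks within 1 kb joined (limma adjusted p = 0.067).

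The other tested genes had KO2 differences of 0.67 to 1.10, beside the median of 0.98 for all tested genes. They were the zinc finger genes Peg3 (1.03 on the log2 scale) and Plagl1 (0.67), the deubiquitinase gene Usp29, the signal peptide peptidase gene H13 (1.01), the retrogene Mcts2 inside an H13 intron (0.83), the sarcoglycan gene Sgce (1.00) and the neuronal membrane protein gene Nnat (0.95). After quantile normalization none of these was called in KO2, and the values of Plagl1, H13, Mcts2, Sgce and Nnat turned negative, as did that of Mest above. The Mcts2 call was lost with no flank (0.13, limma adjusted p = 0.396). Those of Plagl1 and Sgce were lost with equal numbers of peaks (limma adjusted p = 0.176 and 0.076). The Nnat call was lost without KO2 replicate 1 (limma adjusted p = 0.062), and its largest H3K27ac region lay at the start of the neighbouring gene Blcap. Peg3 and Usp29 share a bidirectional promoter and the peaks over it.

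**Figure D2:**
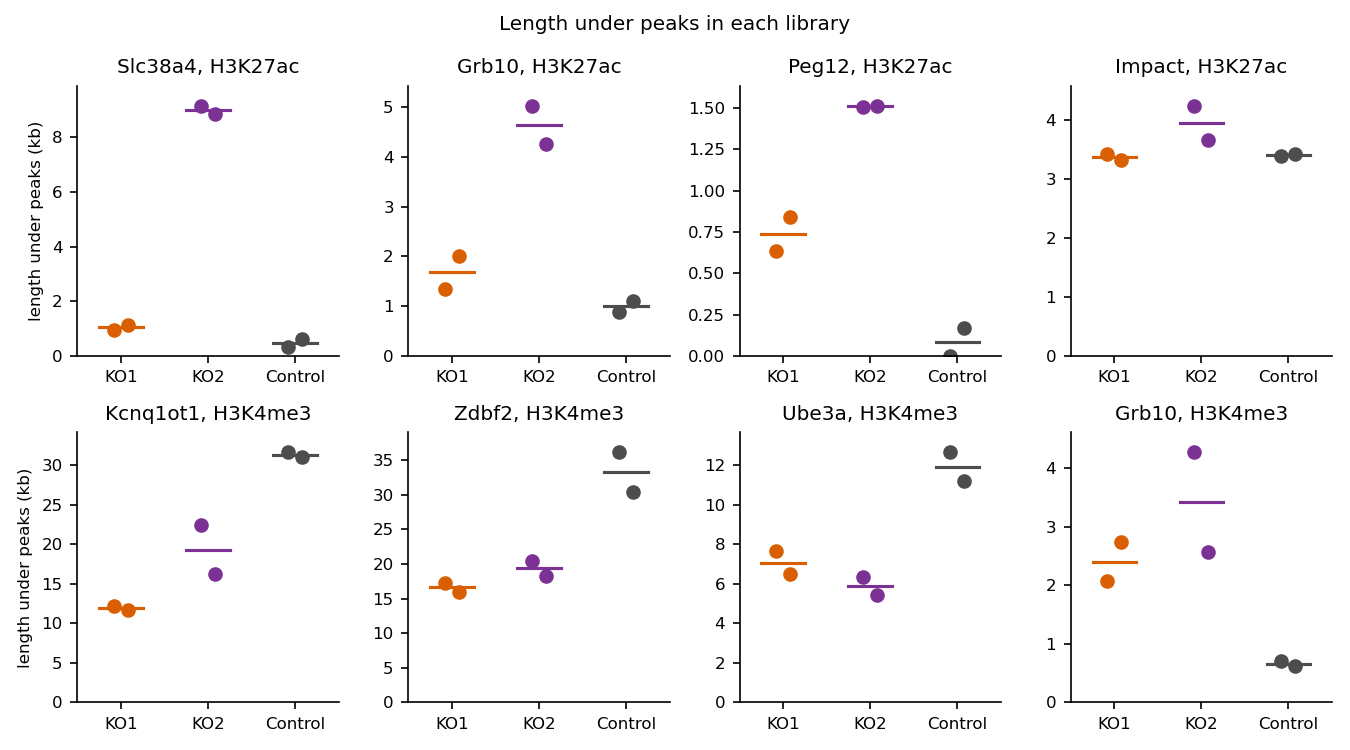
Covered length in kb in each library (points) with the mean of 2 libraries (lines) for 4 genes with H3K27ac in the top row and 4 with H3K4me3 in the bottom row, KO1 and KO2 left of Control. The 2 KO2 libraries at Slc38a4 hold 9142 and 8864 bp of H3K27ac, and all 4 knockout libraries lie below both Control libraries for H3K4me3 at Kcnq1ot1, Zdbf2 and Ube3a and above them at Grb10.

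H3K4me3 was found over all 34 loci in at least 1 library, and 30 genes entered its test. In KO1, 7 of 30 were called lower (Kcnq1ot1, Kcnq1, Zdbf2, Slc38a4, Ube3a, Mest and Impact) and 1 higher (Grb10), beside 15.4% of 13703 tested genes lower and 1.77% higher. In KO2, 8 were called lower, the same 7 and H13, and 2 higher (Grb10 and Peg12), beside 25.1% lower and 5.12% higher. The median log2 difference of all tested genes was -0.16 in each line, and that of the 30 imprinted genes -0.24 in KO1 and -0.16 in KO2. The shares of imprinted genes called are close to those of the genome in both lines. After quantile normalization, which brought both medians to within 0.02 of 0, the split over all genes was 6.17% lower and 5.95% higher in KO1 and 12.1% lower and 13.4% higher in KO2. On that scale Kcnq1ot1, Kcnq1, Zdbf2 and Slc38a4 were lower and Grb10 and Peg12 higher in KO1. In KO2, Ube3a alone was lower, and 7 were higher (Grb10, Peg12, Usp29, Sgce, Snrpn, Gnas and Nespas).

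The largest log2 difference in H3K4me3 in KO1 was at Kcnq1ot1. Covered H3K4me3 was 12209 and 11728 bp in KO1, 22398 and 16199 bp in KO2 and 31579 and 31008 bp in Control, so that Control was highest, KO2 intermediate and KO1 lowest without overlap. The difference was -1.35 (SE 0.16, limma adjusted p = 0.0016) in KO1, which held under all 18 alternatives, and -0.70 (SE 0.16, limma adjusted p = 0.011) in KO2, which was lost without Control replicate 1 or 2 (limma adjusted p = 0.087 and 0.074). KO2 exceeded KO1 by 0.65 (SE 0.16, limma adjusted p = 0.048), and this call held in only 6 of the 18 alternatives, being lost without any KO1 or Control library (limma adjusted p up to 0.239) and under 8 other settings (0.052 to 0.124). Over the 5 kb downstream of the start, peaks covered 96.6% in KO1, 100% in KO2 and 100% in Control, where a fully covered stretch cannot show a change in the strength of the mark. From 10 to 20 kb the covered share was 17.4% in KO1, 43.2% in KO2 and 79.3% in Control, and from 30 to 50 kb it was 2.51% in KO1, 2.93% in KO2 and 31.9% in Control. Kcnq1, which contains these peaks, differed by -1.18 (SE 0.16, limma adjusted p = 0.0027) in KO1 and -0.58 (SE 0.16, limma adjusted p = 0.024) in KO2. The KO2 call for Kcnq1 was lost without any Control or KO1 library (limma adjusted p from 0.054 to 0.135).

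The same shape was seen at Slc38a4, where covered H3K4me3 was 12056 and 10152 bp in KO1, 14061 and 11318 bp in KO2 and 21188 and 18647 bp in Control. The difference was -0.82 (SE 0.15, limma adjusted p = 0.0084) in KO1 and -0.64 (SE 0.15, limma adjusted p = 0.013) in KO2. Without Control replicate 1 or 2 the limma adjusted p was 0.094 and 0.052 in KO1 and 0.12 and 0.055 in KO2, and without KO1 replicate 2 it was 0.081 in KO1. Within 2 kb of the upstream start the covered share was nearly equal, at 49.2% ± 0.424 in KO1, 52.0% ± 2.57 in KO2 and 49.5% ± 0.0495 in Control (SD, n = 2). From 10 to 20 kb downstream it was 7.82% in KO1, 7.82% in KO2 and 33.8% in Control. Slc38a4 in KO2 thus had less H3K4me3 over its body and more H3K27ac over the first 10 kb of it, although the KO2 difference in H3K4me3 was not called after quantile normalization (-0.07).

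**Figure D3:**
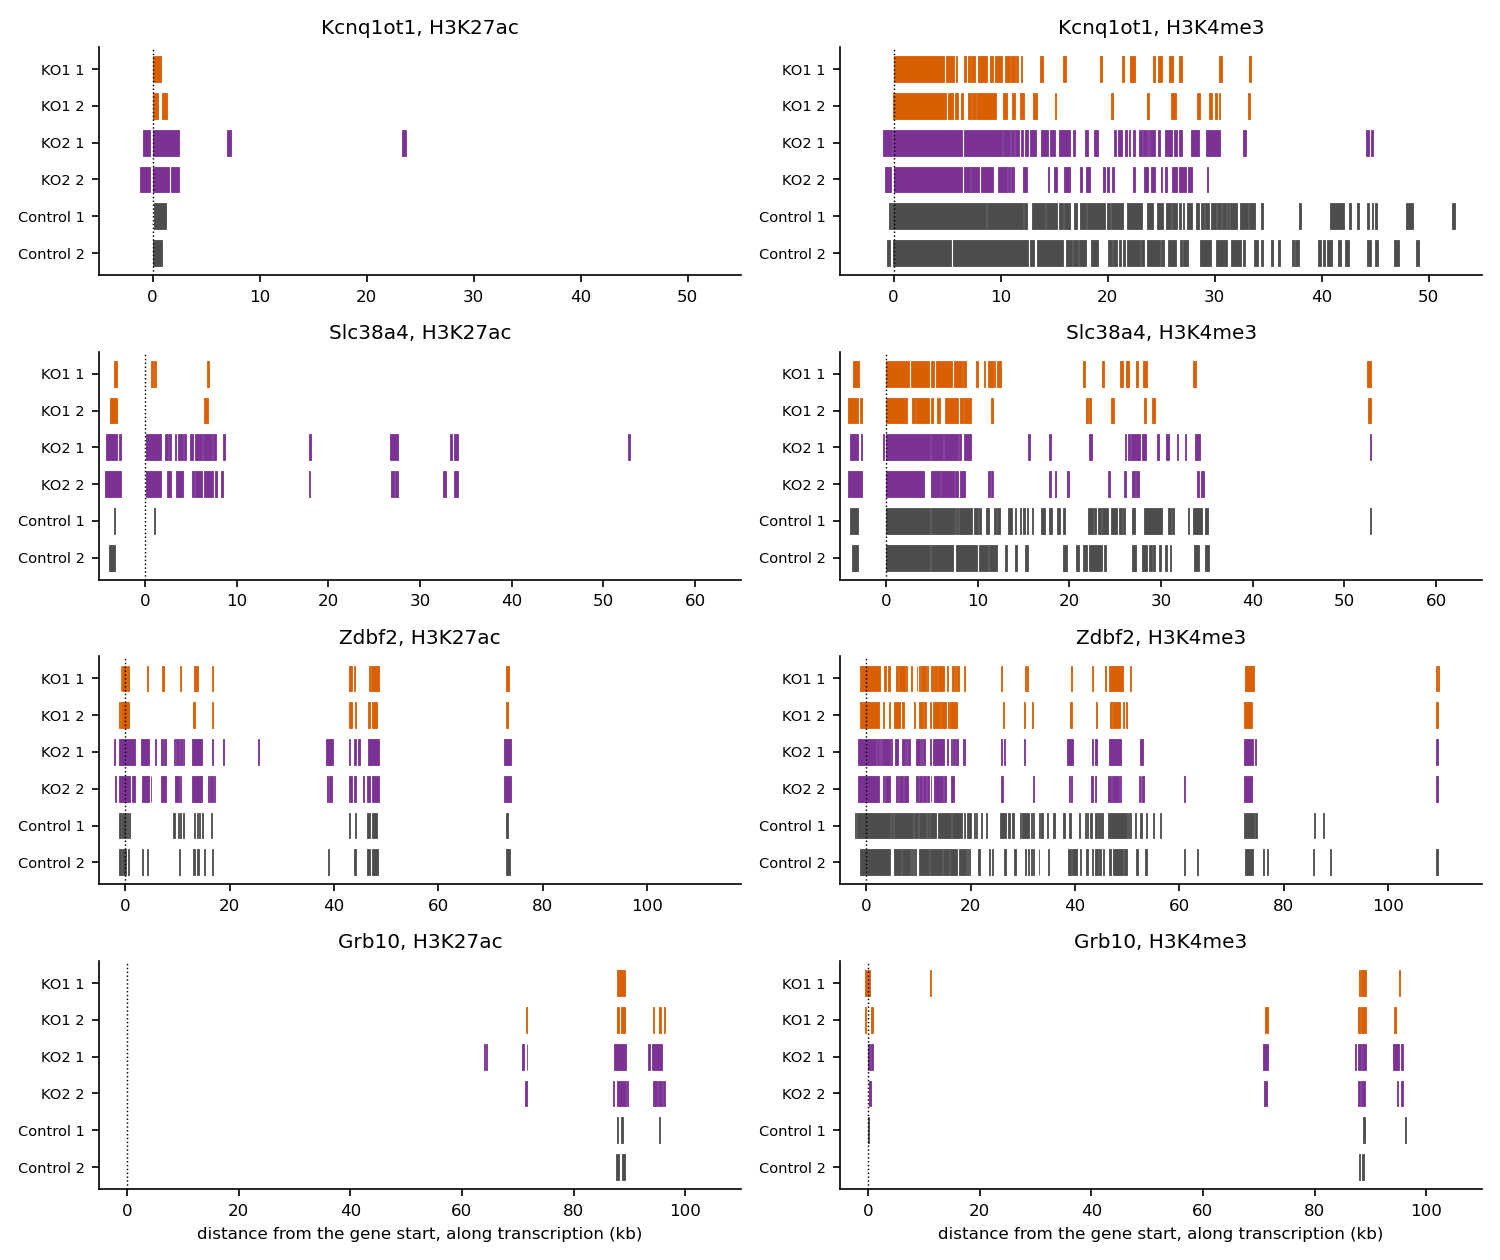
Peaks of each library at 4 loci, H3K27ac on the left and H3K4me3 on the right, drawn by distance in kb from the most upstream start along transcription (dotted line), with KO1 and KO2 above Control. The H3K4me3 blocks of Kcnq1ot1, Slc38a4 and Zdbf2 reach farther and with fewer gaps in the Control rows, and most Grb10 peaks lie 70.7 to 96.4 kb downstream of the start.

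At Zdbf2 covered H3K4me3 was 17284 and 15953 bp in KO1, 20450 and 18312 bp in KO2 and 36091 and 30331 bp in Control, with all knockout libraries below both Control libraries. The difference was -0.97 (SE 0.14, limma adjusted p = 0.0031) in KO1 and -0.76 (SE 0.14, limma adjusted p = 0.0039) in KO2, and without Control replicate 1 the limma adjusted p was 0.055 in KO1 and 0.066 in KO2. From 5 to 10 kb downstream of the upstream start, peaks covered 36.5% in KO1, 45.4% in KO2 and 81.7% in Control, and from 30 to 50 kb 16.9% in KO1, 18.4% in KO2 and 42.1% in Control. The start of Gpr1, a G protein-coupled receptor gene, lies in the same locus, and the covered bases there count for both.

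At Ube3a the lower H3K4me3 of the knockout lines was called in KO2 under every setting tried. KO2 minus KO1 was -0.24 (SE 0.13, limma adjusted p = 0.359), which was not called. Covered H3K4me3 was 7657 and 6470 bp in KO1, 6322 and 5452 bp in KO2 and 12633 and 11171 bp in Control. The KO2 difference of -0.96 (SE 0.13, limma adjusted p = 0.0014) held under all 18 alternatives, quantile normalization included. The KO1 difference of -0.71 (SE 0.13, limma adjusted p = 0.0094) was lost without Control replicate 1 or 2 (limma adjusted p = 0.095 and 0.051) and without KO1 replicate 2 (0.084). Within 2 kb of its start Ube3a was covered for 74.2% ± 4.72 in KO1, 77.2% ± 4.31 in KO2 and 73.7% ± 1.18 in Control (SD, n = 2), and from 5 to 10 kb downstream the covered share was 28.7% in KO1, 18% in KO2 and 80.1% in Control.

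**Figure D4:**
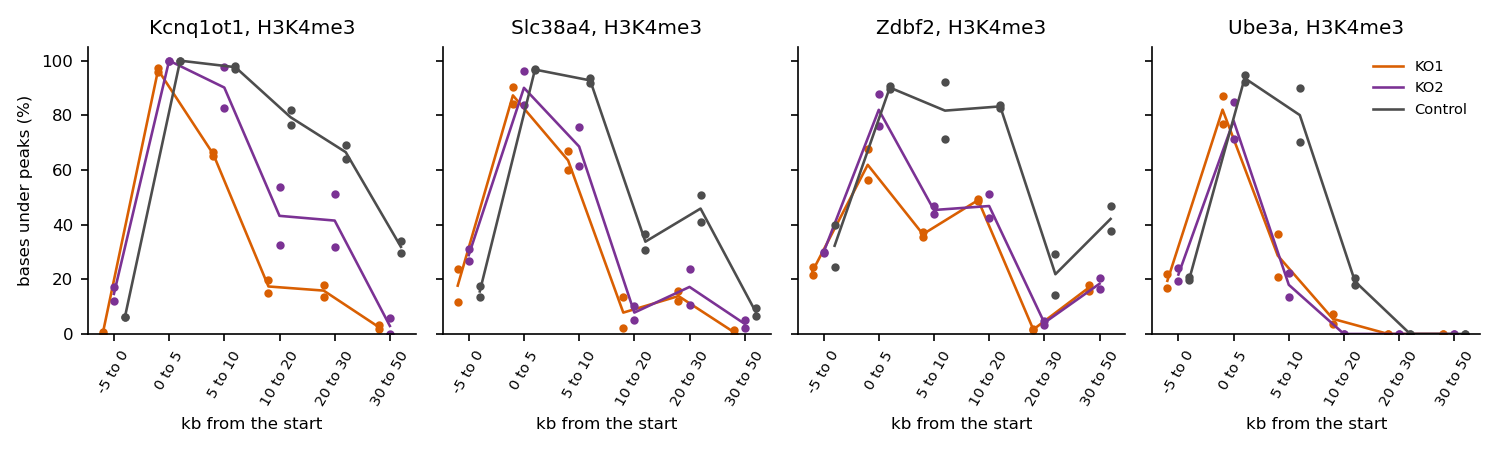
Percent of bases under H3K4me3 peaks by distance in kb from the most upstream start, for each library (points) and as the mean of 2 libraries (lines), in KO1, KO2 and Control. From 0 to 5 kb the means lie between 61.9% and 100%, while from 5 kb on both knockout lines lie below Control at the 4 genes wherever Control has peaks.

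The other genes called lower were Mest and Impact in both lines and H13 in KO2. For Mest, with 1947 and 2601 bp in KO1, 2894 and 1989 bp in KO2 and 3455 and 4227 bp in Control, the difference was -0.65 (SE 0.18, limma adjusted p = 0.04) in KO1 and -0.57 (SE 0.18, limma adjusted p = 0.042) in KO2. At Impact, with 4861 and 5168 bp in KO1, 4494 and 4924 bp in KO2 and 7144 and 6542 bp in Control, all knockout libraries lay below both Control libraries, and the difference was -0.41 (SE 0.11, limma adjusted p = 0.038) in KO1 and -0.49 (SE 0.11, limma adjusted p = 0.012) in KO2, and for H13 -0.44 (SE 0.13, limma adjusted p = 0.034) in KO2. None of these calls was left after quantile normalization, where H13 in KO2 stood at 0.005. Those of Mest were lost in KO1 without any KO1 or Control library (limma adjusted p up to 0.206) and in KO2 without either Control library or KO2 replicate 2 (up to 0.222). Those of Impact were lost without either Control library (limma adjusted p = 0.23 and 0.118 in KO1, 0.102 and 0.051 in KO2) and in KO1 also without either KO1 library (0.192 and 0.137). The H13 call was lost without any library other than KO2 replicate 1 (limma adjusted p up to 0.169).

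Grb10 was the gene with the largest H3K4me3 gain in both lines. Covered H3K4me3 was 2076 and 2738 bp in KO1, 4272 and 2573 bp in KO2 and 701 and 623 bp in Control, and all 4 knockout libraries exceeded both Control libraries. The difference was 1.31 (SE 0.20, limma adjusted p = 0.0047) in KO1 and 1.72 (SE 0.20, limma adjusted p = 0.00073) in KO2, called on both scales. Within 2 kb of the upstream start, peaks covered 13.3% ± 1.52 in KO1, 11.8% ± 4.75 in KO2 and 2.14% ± 3.02 in Control (SD, n = 2). Both Control libraries had peaks in the block from 88.0 to 89.0 kb downstream, which was longer in all 4 knockout libraries, and a peak region 70.8 to 71.6 kb downstream was found in both KO2 libraries and 1 KO1 library but in no Control library. The start of the RefSeq gene LOC102631979 lies within the locus, and the last of these regions was centred 1340 bp from that start. Peg12 was the other gene with a gain, with 2058 and 1466 bp in KO1, 2620 and 2592 bp in KO2 and 1231 and 832 bp in Control and a difference of 0.56 (SE 0.17, limma adjusted p = 0.052) in KO1 and 1.03 (SE 0.17, limma adjusted p = 0.0027) in KO2. At Peg12 both marks were therefore higher in KO2 than in Control, in every library.

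Between the lines, 2 of 30 imprinted genes were called higher in KO2 than in KO1 for H3K4me3 and none lower, beside 3.09% of all tested genes higher and 2.56% lower (6.96% and 6.06% after quantile normalization). They were Kcnq1ot1 and Usp29. Covered H3K4me3 at Usp29 was 5915 and 5066 bp in KO2, 3486 and 3040 bp in KO1 and 4412 and 3970 bp in Control, with KO2 highest and KO1 lowest, and the KO2 minus KO1 difference was 0.67 (SE 0.13, limma adjusted p = 0.021). The Usp29 call was lost without KO1 replicate 1 or 2 (limma adjusted p = 0.064 and 0.136), as percent of the locus (0.061) and with peaks joined (0.13). After quantile normalization 6 were called higher (Kcnq1ot1, Kcnq1, Usp29, Peg3, Peg10 and Zdbf2) and none lower.

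The Igf2r cluster did not pass the H3K4me3 test. Igf2r, the receptor gene that clears the growth factor IGF2, and Airn, the paternal RNA that silences it, share all their peaks here. Covered H3K4me3 was 1667 and 1761 bp in KO1, 1994 and 2243 bp in KO2 and 1948 and 1977 bp in Control, a log2 difference of -0.15 (SE 0.11, limma adjusted p = 0.394) in KO1 and 0.09 (SE 0.11, limma adjusted p = 0.608) in KO2. H3K27ac was absent from KO1 and Control there and covered 320 and 568 bp in the KO2 libraries, with a region of 376 bp just downstream of the Airn start found in both of them. This was too little to enter the test.

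At H19, the maternal growth-restraining RNA, the locus held a single H3K4me3 region. It was found in both Control libraries, with 302 and 303 bp, and in none of the 4 knockout libraries. The region lay at chr7:142580377-142580707, 2.23 kb outside the gene body, beyond its edge of higher coordinate, whichever way the gene is read. It was weak, with an authors' fold enrichment of at most 5.35. Of the regions present in both Control libraries, 16.2% at the imprinted loci and 12.9% at any locus were found in no knockout library. Igf2, the paternal growth factor gene, had 170 and 150 bp in KO1, 282 and 0 bp in KO2 and 207 and 0 bp in Control.

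The maternal genes of the Kcnq1 cluster had little of either mark. Cdkn1c, the cell cycle inhibitor gene, had 528 and 531 bp in KO1, 327 and 280 bp in KO2 and 177 and 268 bp in Control of H3K4me3, with all knockout libraries above both Control libraries, and was below the minimum for the test. Phlda2, which restrains placental growth, and the transporter gene Slc22a18 share a single set of peaks, with 607 and 774 bp in KO1, 839 and 578 bp in KO2 and 820 and 873 bp in Control and a difference of -0.18 (SE 0.17, limma adjusted p = 0.5) in KO1. Ascl2, a trophoblast transcription factor gene, had 278 and 770 bp in KO1, 396 and 795 bp in KO2 and 338 and 594 bp in Control, with wide and overlapping spreads.

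In the Prader-Willi region, the MAGE family genes Ndn and Magel2 and the RING finger gene Mkrn3 carried H3K4me3 in all 6 libraries and were not called. Ndn had 564 and 720 bp in KO1, 695 and 662 bp in KO2 and 489 and 347 bp in Control, and Magel2 had 452 and 504 bp in KO1, 750 and 667 bp in KO2 and 548 and 573 bp in Control. Mkrn3 had 1737 and 2231 bp in KO1, 1945 and 1797 bp in KO2 and 1459 and 1417 bp in Control, a difference of 0.35 (SE 0.13, limma adjusted p = 0.101) in KO1 and 0.29 (SE 0.13, limma adjusted p = 0.13) in KO2, with all knockout libraries above Control. H3K27ac at Mkrn3, too short for the test, was 358 and 559 bp in KO1, 787 and 922 bp in KO2 and 0 and 204 bp in Control. Among the other genes not called in H3K4me3 were Peg3, Peg10, Sgce, Snrpn, Plagl1, Nnat, Gnas, Nespas, Mcts2, Trappc9 and Inpp5f, with log2 differences of -0.45 to 0.26 in KO1 and -0.33 to 0.37 in KO2. Of these, Snrpn (-0.16), Gnas (-0.19) and Nespas (-0.21) turned to 0.31, 0.38 and 0.35 in KO2 after quantile normalization.

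Snrpn had 8253 and 7791 bp in KO1, 8971 and 6816 bp in KO2 and 9147 and 8421 bp in Control, with both KO1 libraries just below Control and the KO2 libraries overlapping both. Gnas had 15180 and 14276 bp in KO1, 14748 and 15314 bp in KO2 and 17641 and 16905 bp in Control, so that all 4 knockout libraries lay below both Control libraries. Plagl1 had 4657 and 4111 bp in KO1, 5349 and 4193 bp in KO2 and 6171 and 5998 bp in Control, again with Control highest, and a difference of -0.43 (SE 0.14, limma adjusted p = 0.058) in KO1. Sgce, whose locus overlaps that of the retrotransposon-derived gene Peg10, had 4231 and 4977 bp in KO1, 6420 and 4923 bp in KO2 and 4324 and 4139 bp in Control, with KO2 called higher after quantile normalization (0.72, limma adjusted p = 0.0012). Peg10 had 1371 and 1495 bp in KO1, 2631 and 1888 bp in KO2 and 2221 and 2045 bp in Control, with KO1 below the other genotypes and a difference of -0.45 (SE 0.15, limma adjusted p = 0.069).

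The remaining genes carried short stretches of the marks. Trappc9, a gene of a vesicle trafficking complex, had 1141 and 1332 bp in KO1, 1388 and 1240 bp in KO2 and 1537 and 1033 bp in Control of H3K4me3, and the phosphoinositide phosphatase gene Inpp5f had 1301 and 1247 bp in KO1, 1100 and 1270 bp in KO2 and 1344 and 693 bp in Control, in both cases with the genotypes overlapping. Zim1, a zinc finger gene, had between 150 and 257 bp in each library. Their H3K27ac stayed under the minimum for the test, with 320 and 367 bp in KO1, 354 and 455 bp in KO2 and 284 and 284 bp in Control at Trappc9 and no peak at Zim1. Peg10, also untested for H3K27ac, had 687 and 161 bp in KO1, 901 and 290 bp in KO2 and 150 and 0 bp in Control, and Magel2 had a single peak of 163 bp in 1 KO1 library.

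Counted as regions, with peaks of the 6 libraries merged where they shared at least 1 bp, the imprinted loci held 159 H3K27ac and 282 H3K4me3 regions. Of 90 H3K27ac regions found in both KO2 libraries, 34 (37.8%) were found in neither Control library, beside 44.4% over any locus, and 20 (22.2%) in neither KO1 library, beside 31.6%. Of 48 in both KO1 libraries, 4 (8.33%) were found in neither Control library, beside 13.9%, and 0 in neither KO2 library, beside 1.57%. Of 47 in all 4 knockout libraries, 3 (6.38%) were found in neither Control library, beside 11.9%. The 41 H3K27ac regions of both Control libraries were seldom lost, with 1 (2.44%) found in neither KO1 library, beside 2.82%, 0 in neither KO2 library, beside 1.13%, and 0 in none of the 4 knockout libraries, beside 0.447%.

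Loss was the commoner change for H3K4me3. Of 111 regions in both Control libraries, 24 (21.6%) were found in neither KO1 library, beside 17.7% over any locus, 19 (17.1%) in neither KO2 library, beside 21.4%, and 18 (16.2%) in no knockout library, beside 12.9%. New regions were fewer, with 4 of 85 (4.71%) of both KO1 libraries and 7 of 101 (6.93%) of both KO2 libraries found in neither Control library, beside 4.58% and 8.37%. None of the 73 regions in all 4 knockout libraries was new, beside 2.0% over any locus. Between the lines, 11 of 101 regions of KO2 (10.9%) were found in neither KO1 library and 4 of 85 of KO1 (4.71%) in neither KO2 library, beside 8.84% and 7.04%. These shares over the imprinted loci lie near those of all loci or below them for H3K27ac, and on either side of them for H3K4me3. They depend on the merging. With peaks within 1 kb merged, 10 of 58 H3K4me3 regions of Control (17.2%) were found in neither KO1 library, beside 8.74%. For KO2 it was 7 (12.1%), beside 9.14%. New H3K4me3 regions were then 1.85% in KO1 and 3.70% in KO2, beside 3.56% and 6.43%.

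The overlap of the marks changed with the lengths. With the libraries of a genotype pooled, 11.5% of the H3K4me3-covered bases of Slc38a4 also lay under H3K27ac in KO1, 62.0% in KO2 and 3.02% in Control. At Zdbf2 the share was 29.95% in KO1, 64.9% in KO2 and 18.9% in Control. At Kcnq1ot1, where H3K27ac stayed near the start, it was 7.43% in KO1, 15.7% in KO2 and 3.08% in Control. Between 87.8% and 100% of the H3K27ac-covered bases of these 3 genes lay under H3K4me3 of the same genotype.

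Of 22 genes whose products keep or read imprints, 18 entered the H3K27ac test, and 5 were called higher in KO1 and 18 in KO2, with none lower, beside 13.2% and 90.0% of all tested genes higher. Their median log2 differences were 0.42 in KO1 and 1.205 in KO2, beside 0.22 and 0.98 for all tested genes, and after quantile normalization 2 were higher in KO1 (beside 4.49% of all tested genes) and 6 higher and 2 lower in KO2 (beside 16.5% and 18.6%). They include Dnmt3a, a methyltransferase that writes new DNA methylation, with 2.85 (SE 0.23, limma adjusted p = 2.2e-05) in KO2, and Tet1, which oxidises methylcytosine, with 2.29 (SE 0.17, limma adjusted p = 1.8e-05). Trim28, the partner of ZFP57, differed by 1.19 (SE 0.13, limma adjusted p = 7.5e-05) in KO2, near the median of all tested genes, and was not called after quantile normalization (0.14, limma adjusted p = 0.337). Setdb1, the H3K9 methyltransferase recruited by TRIM28, had H3K27ac peaks of 1158 and 887 bp in KO1, 1573 and 844 bp in KO2 and 0 and 0 bp in Control.

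For H3K4me3, 6 of 21 genes of this list were called lower and 1 higher in KO1, and 13 lower and 1 higher in KO2. Of all tested genes, 15.4% were lower and 1.77% higher in KO1 and 25.1% lower and 5.12% higher in KO2. Their medians were -0.23 in KO1 and -0.46 in KO2, beside -0.16 for all tested genes in each. After quantile normalization 1 was lower and 3 higher in KO1, beside 6.17% and 5.95% of all tested genes, and 6 lower and 5 higher in KO2, beside 12.1% and 13.4%. Smchd1, a chromosome structure protein gene, differed by -1.43 (SE 0.15, limma adjusted p = 0.00043) in KO2, Arid4b, a regulator of the Prader-Willi region imprint in mice, by -1.27 (SE 0.12, limma adjusted p = 0.00036), and Ctcf, the insulator protein gene, by -0.95 (SE 0.15, limma adjusted p = 0.0025). The gene called higher in each line was Dppa3, which protects imprints in the early embryo, at 0.59 (SE 0.13, limma adjusted p = 0.02) in KO1 and 0.88 (SE 0.13, limma adjusted p = 0.0019) in KO2.

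Of 49 further imprinted genes, 21 entered the H3K27ac test, with 3 called higher in KO1, 19 higher in KO2 and none lower, beside 13.2% and 90.0% of all tested genes higher. Their medians were 0.19 in KO1 and 0.85 in KO2, beside 0.22 and 0.98. After quantile normalization 1 was higher and 2 lower in KO1, beside 4.49% and 2.09% of all tested genes, and 3 higher and 6 lower in KO2, beside 16.5% and 18.6%. For H3K4me3, 31 entered, with 8 lower and 2 higher in KO1 and 8 lower and 3 higher in KO2, beside 15.4% and 1.77% of all tested genes in KO1 and 25.1% and 5.12% in KO2. Their medians were -0.24 in KO1 and -0.23 in KO2, beside -0.16 in each. After quantile normalization 6 were lower and 4 higher in KO1, beside 6.17% and 5.95%, and 4 lower and 4 higher in KO2, beside 12.1% and 13.4%. The largest H3K4me3 difference among them was at Gab1, a receptor adapter gene, with 14531 and 14225 bp in KO1, 9742 and 8772 bp in KO2 and 49013 and 48282 bp in Control, which gave -1.72 (SE 0.12, limma adjusted p = 0.00032) in KO1 and -2.33 (SE 0.12, limma adjusted p = 8.5e-05) in KO2. Gab1, like Ctcf above, lies on chromosome 8. The median H3K4me3 difference of 752 tested genes there was -0.391 in KO1 and -0.323 in KO2, lower than that of all tested genes. Cobl, the actin nucleator gene next to Grb10, differed in H3K4me3 by -1.08 (SE 0.14, limma adjusted p = 0.0025) in KO1 and -0.99 (SE 0.14, limma adjusted p = 0.0015) in KO2, where Grb10 was higher.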

How the data were processed

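Chromatin of 18 samples was labelled as H3K27ac, H3K4me3 or input, and the 12 peak lists of the 2 marks were used, 2 for each of 3 genotypes and each mark. The 6 input samples were not analysed here. Per the submitters' processing notes, the tools were CASAVA, Trimmomatic 0.38, Bowtie 1.2.2 and MACS2 (version not given in the sources used here) and the genome was mm10. Per the labels' protocols, spike-in chromatin and its antibody were added, but no label says whether they or the inputs entered the peak calling. Each library has its own peak list, called by the authors. The deposited lists give the fold enrichment of each peak, a ratio that belongs to its own list. The deposited −log10 p and −log10 q are likewise the authors', and every peak has a q under 0.01. The deposited score, a rescaled −log10 q, was not used. Read totals are not in the lists, so depth is unknown and no counting interval is given.

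Gene positions came from RefSeq GRCm38.p6. Covered length per gene and library was computed on the body with 5 kb on each side, and log2(bp + 500) was compared with limma 3.58.1 in R 4.3.3 (lmFit, eBayes with trend) over the 6 libraries of a mark. Genes whose mean over those libraries fell under 500 bp were not tested. The added 500 bp understates folds of low values. P-values were adjusted by Benjamini-Hochberg over all genes tested, with a threshold of 0.05. In simulated lists with 200 genes changed by 1 on the log2 scale in KO2, 58.5% of the changed genes were recovered for H3K27ac and 70.5% for H3K4me3 against Control. The changed genes were drawn from loci with more covered length than the test minimum, and all other genes were left unchanged. The recovered share therefore does not describe loci of low coverage, nor H3K27ac in KO2, where most genes differed. The 18 alternatives were no filter, added lengths of 100 and 2000 bp, percent of the locus, quantile normalization, centred chromosome medians, peaks with q under 1e-5, equal numbers of peaks, no flank, peaks within 1 kb joined, a replicate block, only the genotypes compared, and leaving out each of 6 libraries. All 34 imprinted genes are named, and of each other list up to 4 called genes with the lowest adjusted p per mark and comparison. The imprinted genes and the lists were chosen with earlier results of these data known. Cell type names were checked on marker lists for embryonic stem cells, fibroblasts and trophoblast.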

Additional observations from a re-analysis of the deposited data

Results flagged for a closer look

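Each result here is a tested difference between the knockout lines themselves, KO2 minus KO1 in log2 covered length, with a limma adjusted p under 0.05. For H3K27ac the differences were 2.621 at Slc38a4, 1.814 at Mest, 1.591 at Kcnq1ot1, 1.398 at Zdbf2, 1.321 at Nespas, 1.283 at Mcts2, 1.252 at Grb10, 1.193 at Gnas, 1.1 at H13 and 1.033 at Kcnq1. They were below 1 at Peg3 (0.996), Usp29 (0.978), Peg12 (0.705), Snrpn (0.666), Nnat (0.649), Ube3a (0.523), Plagl1 (0.462) and Sgce (0.456). The median of all tested genes in this comparison was 0.747, and it was -0.061 after quantile normalization, where Slc38a4, Mest, Kcnq1ot1 and Zdbf2 kept a call and Snrpn, Peg12, Nnat, Ube3a, Plagl1 and Sgce turned negative. For H3K4me3 the differences were 0.67 at Usp29 and 0.649 at Kcnq1ot1, both also called after quantile normalization. The Usp29 call held in 14 of 18 alternatives and the Kcnq1ot1 call in 6 of 18.

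The Slc38a4 difference in H3K27ac kept its direction and its call under all 18 alternatives, as did those of Mest, Kcnq1ot1 and Zdbf2. Several of the smaller calls were lost when a library was left out, in part through a larger SE. At Plagl1 the difference was 0.465 without KO2 replicate 1 and 0.459 without KO2 replicate 2, beside 0.462 with all libraries. Its SE rose from 0.13 to 0.173 in each case. At Sgce the difference itself fell, from 0.456 to 0.246 without KO1 replicate 2. The Sgce call was lost without KO1 replicate 2, KO2 replicate 1 or KO2 replicate 2 (limma adjusted p = 0.228, 0.129 and 0.136). The Nnat call was lost without any KO1 or KO2 library (limma adjusted p from 0.055 to 0.227). The Peg12 call was lost without KO1 replicate 1 or either KO2 library (limma adjusted p from 0.066 to 0.075). Those of Plagl1 were lost without either KO2 library (limma adjusted p = 0.06 in each case), that of Snrpn without KO2 replicate 1 (0.052) and that of Ube3a without KO2 replicate 2 (0.074).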

How the results depend on the processing

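Of 59 called values of single imprinted genes, 15 kept direction and call under all 18 alternatives, and 35 under all of them other than quantile normalization and leaving out a library. Genes that share peaks, such as Gnas with Nespas and Kcnq1 with Kcnq1ot1, are counted separately here, so these are not counts of separate loci. The 15 were H3K27ac at Slc38a4, Grb10, Gnas, Nespas, Kcnq1 and Peg12 in KO2 against Control and at Slc38a4, Kcnq1ot1, Mest and Zdbf2 in KO2 against KO1, with H3K4me3 at Kcnq1ot1 and Kcnq1 in KO1 and at Grb10, Peg12 and Ube3a in KO2. Peg12 entered the filtered H3K27ac tests only with its KO2 libraries counted, and its call in KO2 against Control also held with no filter on low coverage. The H3K4me3 call of Grb10 in KO1 was lost as percent of the locus (limma adjusted p = 0.052). The cause of the changes below was not tested.

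Among values called before or after it, quantile normalization reversed the H3K27ac differences of KO2 from Control at Impact (-0.878), Ube3a (-0.587), Plagl1 (-0.402), Mcts2 (-0.208), Nnat (-0.083), Sgce (-0.053), H13 (-0.05) and Mest (-0.044). It reversed those of KO2 from KO1 at Impact (-0.648), Sgce (-0.398), Plagl1 (-0.398), Ube3a (-0.278), Snrpn (-0.185), Nnat (-0.149) and Peg12 (-0.067), and Sgce was also reversed with equal numbers of peaks (-0.074). For H3K4me3 in KO2 against Control it reversed Gnas (0.376), Nespas (0.348), Snrpn (0.31) and H13 (0.005). Values called neither before nor after it also changed sign there, at Nnat (-0.193 to 0.147) and Plagl1 (-0.33 to 0.045).

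Counts of genes called moved by over 1.5 times as follows. For H3K27ac in KO1 against Control, 1264 genes and 3 imprinted genes were called, but 582 and 1 with no filter on low coverage, 71 and 0 as percent of the locus, 601 and 2 after quantile normalization, 775 genes with peaks of q under 1e-5, 228 and 0 with equal numbers of peaks, 731 with no flank, 522 with peaks within 1 kb joined, and 609 and 1 with only the genotypes compared. For H3K27ac in KO2 the 8241 genes and 18 imprinted genes called against Control became 3201 and 8 after quantile normalization. The 7185 and 18 called against KO1 became 1970 and 5 after quantile normalization, 4736 with equal numbers of peaks and 4558 with no flank.

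For H3K4me3 in KO1 against Control, 2359 genes and 8 imprinted genes were called, but 1412 genes with peaks of q under 1e-5 and 1346 and 5 with peaks within 1 kb joined. With only the genotypes compared, 13 imprinted genes were called, beside 300 genes higher and 3081 lower of 13600. For KO2 against KO1, 774 genes and 2 imprinted genes were called. With no filter 1 imprinted gene was called, beside 306 genes higher and 211 lower. With 100 bp added it was 1, beside 376 higher and 319 lower, and with centred chromosome medians 1, beside 374 higher and 285 lower. The counts were 301 and 0 as percent of the locus, 1784 and 6 after quantile normalization, 367 and 1 with peaks of q under 1e-5, 367 and 1 with no flank, 283 and 0 with peaks joined, and 486 and 1 with only the genotypes compared.

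Leaving out each library in turn gave 184 to 1061 genes (0 to 3 imprinted) for H3K27ac in KO1 against Control, 6482 to 8473 (16 to 19) in KO2 against Control and 4589 to 7707 (13 to 19) in KO2 against KO1. For H3K4me3 the ranges were 524 to 3385 genes (3 to 13 imprinted) in KO1 against Control, 1921 to 4446 (3 to 12) in KO2 against Control and 192 to 1275 (0 to 4) in KO2 against KO1. With a library left out, the lone library of its genotype is assumed to vary like the others.

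The replicate numbers did not pair the libraries: deviations of same-numbered libraries correlated at -0.01 to 0.028. A replicate block was added for KO1 against Control, KO2 against Control and KO2 against KO1, given here in that order. For H3K27ac, 4, 18 and 17 imprinted genes were then called higher and none lower. Of all 9124 tested genes, 1045, 8150 and 7073 were higher and 55, 28 and 28 lower. For H3K4me3, 2, 3 and 3 imprinted genes were higher and 8, 8 and 0 lower. Of all 13703 tested genes, 291, 749 and 571 were higher and 2442, 3640 and 547 lower. Peak lists without read totals limit all values, since covered length moves with depth and with the peak caller's threshold, and 2 libraries per genotype leave the spread poorly known.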
